A study of Mus with 8 samples.

Results

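Transcript signals of 40 mouse genes that build or load COPI and COPII transport vesicles were followed in B16F10 cells, a melanoma line that makes pigment. The genes were taken by symbol: a row belonged to the set where its gene symbol in the authors' deposited table equalled a listed name, and all 40 names were found, each on 1 of the 22206 transcript clusters of the array. The cells were seeded 24 h beforehand and then received either plain medium or 2 µM Butyroside D for 48 h. There were 4 control arrays and 4 treated arrays of the Mouse Clariom S type, which reads a transcript cluster, in most cases a gene, through many short probes. The controls are taken as untreated because their titles read only Control and a number and name no compound. A treatment note, however, lists 0.2 µM for them as well as no compound. All 8 arrays come from the same cell line, and no label says whether the arrays are separate cultures. The p-values thus cover only the spread between these arrays, which may be technical.

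Proteins made on the endoplasmic reticulum leave it in vesicles coated by COPII. The small GTPase SAR1 starts the coat, the SEC23 and SEC24 proteins form its inner layer and pick cargo, and SEC13 with SEC31 form the outer cage. COPI coats, built from the coatomer complex and started by ARF GTPases, carry material back from the Golgi apparatus, including escaped chaperones that KDEL receptors catch. Proteins of the p24 (TMED) family and the lectins LMAN1 and LMAN2 sit in the membrane and sort cargo into these carriers. In pigment cells the same route delivers melanosome proteins to the Golgi apparatus.

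The arrays came in close pairs. Within each group, arrays 1 and 2 (the first pair) and arrays 3 and 4 (the second pair) correlated with their partner at 0.997 to 0.998 over all transcript clusters. Correlations with arrays outside the pair were 0.986 to 0.993. The labels give no reason for the pairing, and each n = 4 below therefore rests on 2 pairs. The median log2 signal of an array lay between 5.30 and 5.44. The median of 23 background probe sets lay between 4.69 and 5.17, and 5.17 was taken as the level below which a signal has no readable size. The cell type was checked on its markers: all 8 melanocyte genes, among them Tyr, Tyrp1, Dct and Pmel, were above background, with group means of 13.15 to 19.03. Of 22 fibroblast, keratinocyte, leukocyte and endothelial markers, 20 were below background, and Col1a1 and Col1a2 were just above it.

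None of the 40 genes passed the test between treated and control arrays. The test was limma on log2 values, two-sided, with Benjamini-Hochberg adjustment over all 22206 transcript clusters at a threshold of 0.05, and 0.117% of all transcript clusters passed it. The smallest adjusted p among the genes was 0.0778, for Sar1a. At an unadjusted p under 0.05 there were 9 of the 40 genes, against 17.9% of all transcript clusters. Of these 9, 8 were higher in treated arrays, where the background share was 9.84%, and 1 was lower, where it was 8.07%. The difference was positive for 27 of the 40 genes, with a median of 0.12 on the log2 scale, while 51.5% of all transcript clusters were positive, with a median of 0.01. After quantile normalization 23 of the 40 were positive, with a median of 0.059. Among the 11875 transcript clusters above background, which hold 39 of the 40 genes, 53.1% were positive. Each array reads RNA of a whole culture, so fewer cells with a transcript and less of it per cell cannot be told apart.

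The 40 genes also differed between pairs of arrays of the same group. The median absolute difference between treated and control means was 0.17, that between the control pairs was 0.26 and that between the treated pairs was 0.30, while arrays of a pair differed by 0.10 (all log2). For all transcript clusters above background the same medians were 0.22, 0.28, 0.41 and 0.11. The first of these compares means of 4 arrays and the pair gaps compare means of 2, so the sizes are not ranked against each other. In 17 of the 40 genes the 2 treated pairs lay on opposite sides of the control mean, as they did in 45.8% of all transcript clusters. The median of the 40 genes, taken against the control mean, was 0.13, 0.09, 0.15 and 0.15 in treated arrays 1 to 4, and between -0.06 and 0.04 in the control arrays. All 4 treated arrays were thus above all 4 controls in this median. Over all transcript clusters it was 0.033, 0.037, -0.010 and -0.008 in treated arrays 1 to 4, and -0.008 to 0.005 in the controls. Over those above background it was -0.007, -0.005, 0.050 and 0.058, and -0.030 to 0.029 in the controls. In each of these sets 1 treated pair, but not both, was also above all controls. For all these medians the control mean came from the same 4 control arrays. This draws the control values toward 0, but not the treated ones, so the separation is in part built in.

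**Figure D1:**
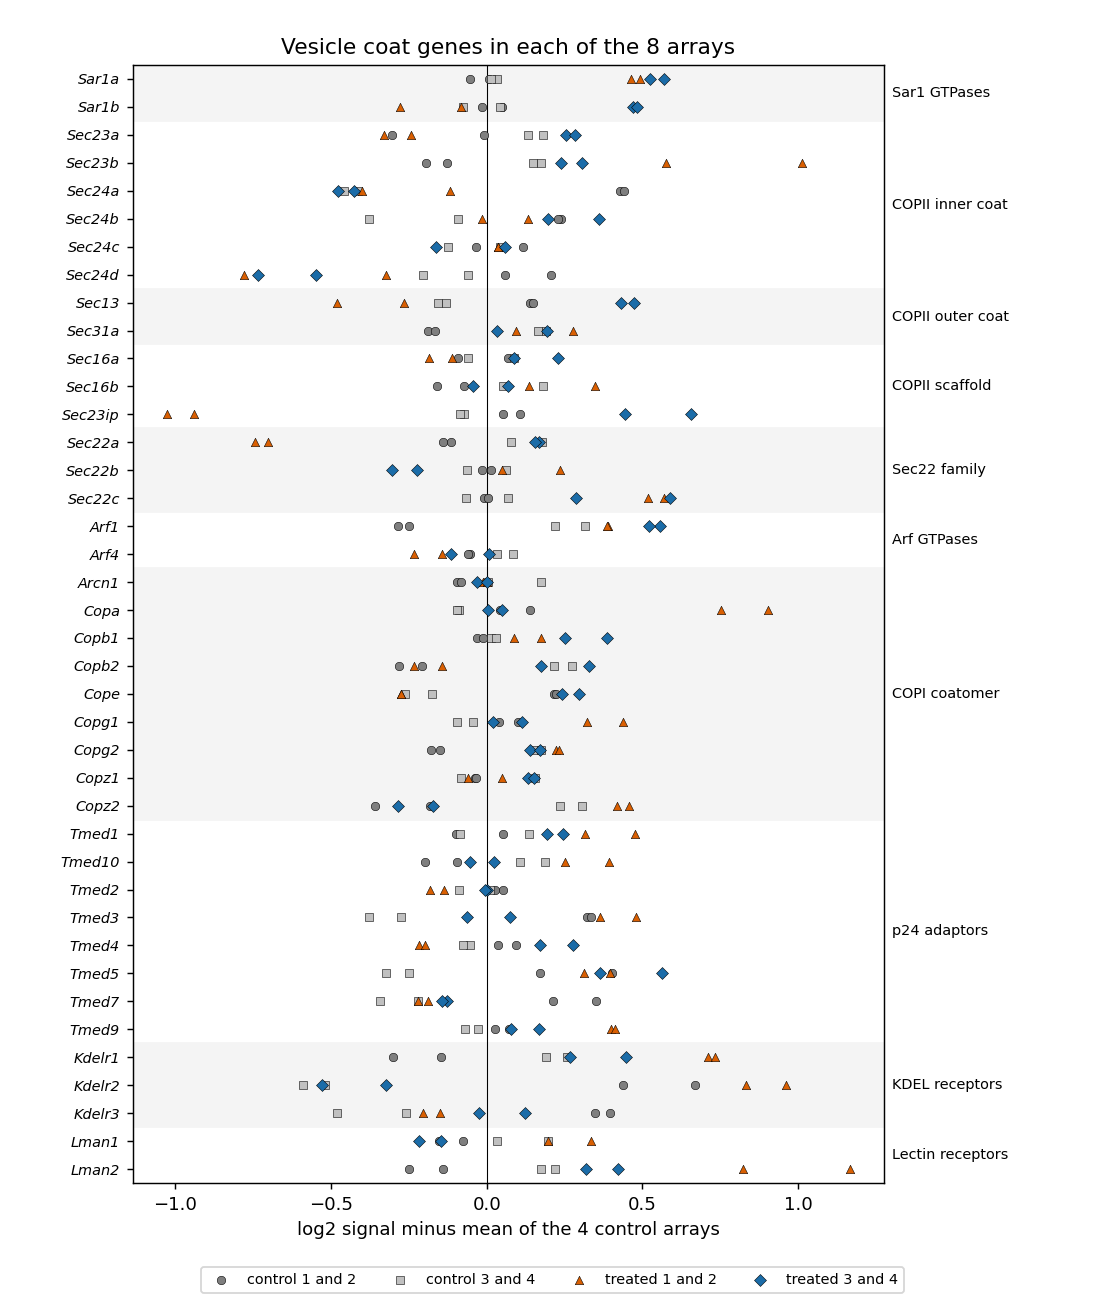
Log2 signal of each of the 40 genes in each array, less the mean of the 4 control arrays, grouped by role. Each point is 1 array, with circles and squares for the control pairs and triangles and diamonds for the treated pairs. The treated points of Sar1a lie together above the controls, while those of Sec23ip lie on both sides of them.

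The groups did not overlap for 10 genes, against 12.9% of all transcript clusters and 15.3% of those above background. In 9 of them every treated array was above every control array (background share 6.98%), and these were Sar1a, Sec23b, Sec22c, Arf1, Copb1, Tmed1, Tmed9, Kdelr1 and Lman2. The exception was Sec24d, which was lower in every treated array (background share 5.93%). The nearest arrays of the groups were more than 0.2 apart for Sar1a and Sec22c, and 0.12 or less apart for the other 8 genes. With the close pair as a random block in limma, 2 of the 40 genes, Sar1a and Lman2, had an unadjusted p under 0.05 (0.0304 and 0.0433). In that fit 4.01% of all transcript clusters had one, and none passed the adjustment.

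Sar1a encodes a GTPase that starts COPII assembly when it binds the membrane of the endoplasmic reticulum. Its log2 signal was 13.38, 13.32, 13.41 and 13.39 in control arrays 1 to 4 and 13.87, 13.84, 13.90 and 13.95 in treated arrays 1 to 4. All 4 treated arrays were higher, and both treated pairs lay at nearly the same level. The control mean was 13.38 ± 0.04 and the treated mean 13.89 ± 0.05 (SD, n = 4 each). This 1.43-fold difference had a log2 interval of 0.27 to 0.76 (95%, limma) and, with a random block for pairs, of 0.06 to 0.97. Its close relative Sar1b, which does the same work and was picked after its values were seen, read 12.01, 11.95, 12.01 and 11.89 in the controls and 11.88, 11.69, 12.43 and 12.45 in the treated arrays. For Sar1b only the second treated pair was above the controls, and the difference was 0.15 ± 0.18 (log2 ± SE, n = 4 arrays per group).

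The inner COPII coat held 6 genes, of which 2 had a positive difference, and their median was -0.01, or 0.02 once each array was centred on its median. Sec23b, a GTPase activator of the coat, read 9.56, 9.63, 9.90 and 9.93 in control arrays 1 to 4 and 10.33, 10.77, 9.99 and 10.06 in treated arrays 1 to 4. The groups did not overlap, but the lowest treated array was within 0.1 of the highest control, and the first treated pair carried most of the difference of 0.53 ± 0.19 (log2 ± SE, adjusted p = 0.194, limma). Its relative Sec23a differed by -0.01 (interval -0.42 to 0.40).

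Sec24d, 1 of 4 cargo-binding SEC24 proteins, read 6.73, 6.59, 6.32 and 6.47 in control arrays 1 to 4. In treated arrays 1 to 4 it read 5.75, 6.20, 5.79 and 5.98, so every treated array was below every control and both treated pairs were low. The difference was -0.60 ± 0.15 (log2 ± SE, adjusted p = 0.104, limma), with an interval of -0.93 to -0.26 that widened to -1.29 to 0.09 when pairs were a random block. The other SEC24 genes differed by -0.36 (Sec24a), 0.17 (Sec24b) and -0.01 (Sec24c), each with an interval that holds 0. Sec24a was high in the first control pair alone, at 8.47 and 8.48, against 7.57 to 7.92 in the other 6 arrays.

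The outer coat genes Sec13 and Sec31a differed by 0.04 and 0.15 (log2), and their adjusted p were 0.947 and 0.602 (limma). Sec31a, the rod of the cage, read 10.24, 10.26, 10.62 and 10.59 in the controls and 10.70, 10.52, 10.62 and 10.46 in the treated arrays, so the treated values overlapped with those of the second control pair. Sec13, which is also a subunit of the nuclear pore, was above all controls in the second treated pair (8.69 and 8.73) and below all controls in the first treated pair (7.99 and 7.78).

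Among the scaffold genes of the exit sites, Sec16a differed by 0.00 with an interval of -0.29 to 0.30. Its relative Sec16b read 2.78, 2.69, 3.03 and 2.91 in the controls and 2.99, 3.20, 2.92 and 2.81 in the treated arrays, all below background, and no size is given for it. Sec23ip, a partner of SEC23 at the exit sites, had the widest gap between treated pairs of the 40 genes. It read 9.62, 9.67, 9.49 and 9.48 in the controls, 8.63 and 8.54 in the first treated pair, and 10.01 and 10.22 in the second treated pair. One treated pair was thus below and the other above all controls, and the mean difference of -0.22 ± 0.36 (log2 ± SE) describes neither pair.

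The SEC22 family has 3 members, of which Sec22b is the SNARE that fuses vesicles between the endoplasmic reticulum and the Golgi apparatus. Sec22b differed by -0.06 (interval -0.38 to 0.26) and Sec22a by -0.28 (interval -0.80 to 0.24), with Sec22a low in the first treated pair alone (8.63 and 8.58). Sec22c read 8.02, 8.04, 8.10 and 7.97 in control arrays 1 to 4 and 8.55, 8.60, 8.32 and 8.62 in treated arrays 1 to 4. Every treated array was higher, with a 1.41-fold difference, from 8.03 ± 0.06 to 8.52 ± 0.14 (SD, n = 4 each), and an adjusted p of 0.101 (limma).

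Arf1, the GTPase that brings coatomer to Golgi membranes, read 14.42, 14.46, 14.93 and 15.02 in control arrays 1 to 4. It read 15.10, 15.09, 15.26 and 15.23 in treated arrays 1 to 4, which were all higher, although control array 4 came within 0.1 of the lowest of them. The difference was 0.46 ± 0.16 (log2 ± SE, adjusted p = 0.196, limma). Arf4, a related GTPase of the early secretory route, read 12.55, 12.54, 12.68 and 12.63 in the controls and 12.46, 12.37, 12.61 and 12.48 in the treated arrays. Its groups overlapped, and the difference was -0.12 with an interval of -0.38 to 0.14.

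The coatomer genes had 7 of 9 positive differences and a median of 0.10 (log2). Once arrays were median-centred, 9 of 9 were positive with a median of 0.13, and once quantile-normalized, 6 of 9 with a median of 0.035. Copa, the alpha subunit, read 13.22, 13.13, 13.00 and 12.99 in control arrays 1 to 4 and 13.84, 13.99, 13.09 and 13.13 in treated arrays 1 to 4. Only the first treated pair stood above the controls, by 0.83 against 0.03 for the second treated pair. Copb1, the beta subunit, read 12.75, 12.77, 12.80 and 12.81 in the controls and 12.96, 12.87, 13.17 and 13.04 in the treated arrays. Every treated array of Copb1 was higher, by a smaller step, and the difference was 0.23 ± 0.12 (log2 ± SE, adjusted p = 0.346, limma).

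For 4 further coatomer genes the control arrays already differed by pair, by 0.33 or more. Copb2, the beta-prime subunit, read 12.33, 12.40, 12.88 and 12.82 in the controls and 12.37, 12.46, 12.78 and 12.94 in the treated arrays. Cope, the epsilon subunit, read 11.997, 12.01, 11.52 and 11.61 in the controls and 11.51, 11.51, 12.08 and 12.02 in the treated arrays. Copg2, a gamma subunit, read 15.55, 15.58, 15.89 and 15.91 in the controls and 15.96, 15.96, 15.87 and 15.91 in the treated arrays. In Copb2 and Cope each treated pair lay near a control pair, and the differences were 0.03 and 0.00, both with standard errors of 0.18 to 0.19, while Copg2 differed by 0.19 with a standard error of 0.13. Arcn1, the delta subunit, differed by -0.01 with an interval of -0.27 to 0.25, and Copg1 and Copz1 differed by 0.22 and 0.07. Copz2, a zeta subunit chosen after its values were seen, had the widest gap between control pairs of the coatomer genes, 0.54. It read 9.29, 9.11, 9.77 and 9.70 in the controls and 9.93, 9.89, 9.30 and 9.19 in the treated arrays, and its difference was 0.10 ± 0.22 (log2 ± SE).

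The p24 family had 6 of 8 positive differences and a median of 0.18 (log2). Tmed1 read 7.60, 7.75, 7.83 and 7.61 in control arrays 1 to 4 and 8.01, 8.17, 7.89 and 7.94 in treated arrays 1 to 4. Tmed9 read 10.53, 10.49, 10.39 and 10.43 in the controls and 10.86, 10.87, 10.63 and 10.54 in the treated arrays. Neither gene had an overlap between groups, and the second treated pair was the nearer to the controls in both. Their differences were 0.31 ± 0.12 and 0.26 ± 0.13 (log2 ± SE), with adjusted p of 0.243 and 0.309 (limma).

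Tmed5 read 9.52, 9.29, 8.80 and 8.87 in the controls and 9.52, 9.43, 9.68 and 9.49 in the treated arrays. Tmed3 read 9.04, 9.06, 8.44 and 8.34 in the controls and 9.20, 9.09, 8.66 and 8.80 in the treated arrays. Both genes were low in the second control pair, and without them the differences were 0.12 for Tmed5 and -0.11 for Tmed3. The other 4, Tmed2, Tmed4, Tmed7 and Tmed10, differed by -0.17 to 0.15. TMED2 and TMED10 are the pair on which the stability of p24 complexes rests, and their genes differed by -0.08 (interval -0.34 to 0.17) and 0.15 (interval -0.18 to 0.49).

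KDEL receptors carry escaped chaperones back to the endoplasmic reticulum in COPI vesicles. Kdelr1 read 11.48, 11.33, 11.89 and 11.82 in control arrays 1 to 4 and 12.34, 12.37, 11.90 and 12.08 in treated arrays 1 to 4. The groups did not overlap, but treated array 3 was only 0.01 above control array 3, and the difference was 0.54 ± 0.17 (log2 ± SE, adjusted p = 0.160, limma). Kdelr3 read 6.09, 6.14, 5.48 and 5.26 in the controls and 5.59, 5.54, 5.72 and 5.87 in the treated arrays, close to background, with the control pairs on either side of the treated arrays. Kdelr2, chosen after its values were seen, read 12.76, 12.99, 11.73 and 11.80 in the controls and 13.15, 13.28, 11.996 and 11.79 in the treated arrays. It had the widest gap between control pairs of the 40 genes, so its interval for the difference, -0.66 to 1.13, also held more than a 2-fold increase.

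Lman2, a lectin that binds the high-mannose sugars of cargo, had the largest positive difference of the 40 genes. It read 8.54, 8.65, 8.96 and 9.01 in control arrays 1 to 4 and 9.61, 9.95, 9.11 and 9.21 in treated arrays 1 to 4. All treated arrays were higher, from a control mean of 8.79 ± 0.23 to 9.47 ± 0.39 (SD, n = 4 each), a 1.60-fold difference and an adjusted p of 0.145 (limma). The first treated pair was above the control mean by 0.99 and the second by 0.37. Lman1, the lectin that carries clotting factors with its partner MCFD2, differed by 0.04 with an interval of -0.31 to 0.40. For 37 of the 40 genes the 95% interval lay within a 2-fold change either way, the exceptions being Kdelr2, Lman2 and Sec23ip, and for 30 of the 40 it did so when pairs were a random block. The same shares over all transcript clusters were 88.8% and 69.3%.

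The 19 genes outside the rule for values per array, Sar1b, Copz2 and Kdelr2 among them, had overlapping groups in all 19 cases. Their differences ran from -0.36 to 0.24 (log2), 11 of them positive, with adjusted p of 0.410 to 0.990 (limma), and all 19 intervals held 0. The rule had set apart the 12 genes with the smallest p. That these 19 intervals held 0 follows from that choice, as in large part does the overlap. For 10 of them the interval lay within 0.5 on the log2 scale either way, among them Sec16a, Sec24c, Arcn1, Copz1, Sec22b, Lman1 and Tmed2. In 13 of the 19 the treated pairs lay on opposite sides of the control mean, against 17 of the 40 genes and 45.8% of all transcript clusters. Setting apart the genes with the smallest p also favours such genes among the 19, so this count is not a result of its own.

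**Figure D2:**
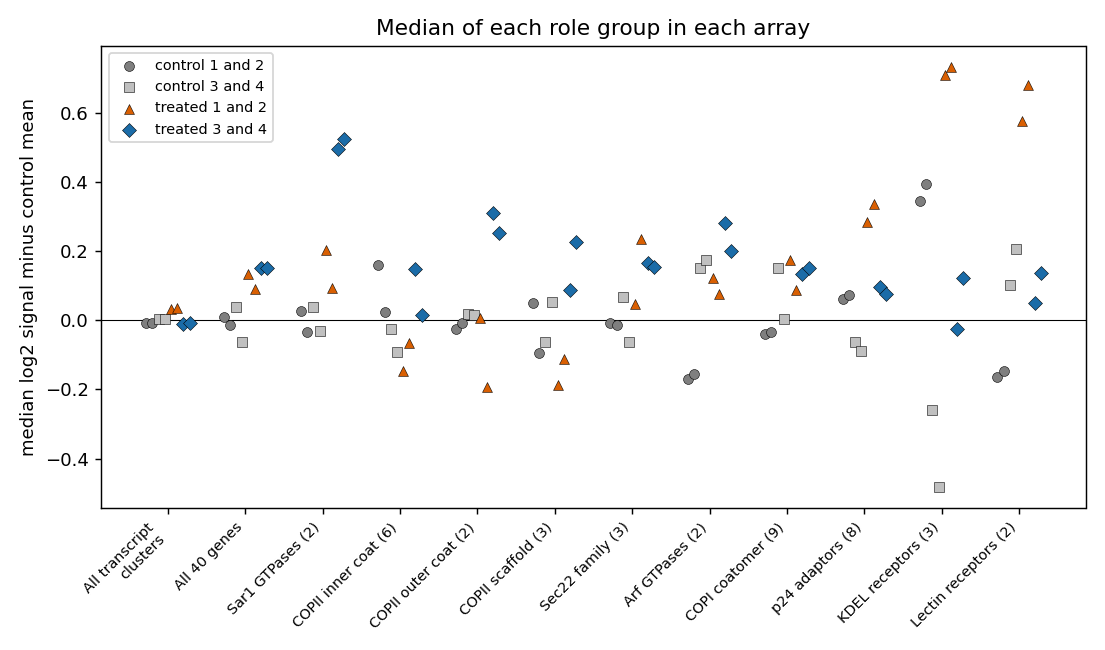
Median log2 signal of each role group in each array, less the control mean, with all 22206 transcript clusters and all 40 genes at the left. Numbers in brackets are genes per group and each point is 1 array. By median, the Sar1 genes were highest in the second treated pair, and the KDEL receptors and lectins in the first treated pair. These medians rest on 2 or 3 genes each. Sar1a was at 0.48 and 0.55 in the first and second treated pair, and Sar1b at -0.18 and 0.48. Kdelr3, unlike Kdelr1 and Kdelr2, was lower in the first treated pair, at -0.18 against 0.05.

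The role groups were ordered differently in the 2 treated pairs. Against the control mean, 23 of the 40 genes were higher in the first treated pair, where 53.4% of all transcript clusters were, and 28 were higher in the second, where 48.7% were. In the first treated pair the highest medians were those of the KDEL receptors at 0.72, the lectins at 0.63 and the p24 family at 0.34. The 13 COPII genes together, which include the Sar1 genes, were at -0.15. The KDEL receptors were also apart between control pairs, at 0.35 and 0.39 in the first and -0.26 and -0.48 in the second. In the second treated pair the Sar1 genes were at 0.51 and the 13 COPII genes, Sar1 genes included, at 0.27. Taken separately, the inner coat, outer coat and scaffold genes were at 0.11, 0.28 and 0.16 in that pair. The KDEL receptors, lectins and p24 family were at 0.05, 0.09 and 0.06 there. The coatomer genes had nearly the same median in both, 0.13 and 0.14. When each treated pair alone was set against all controls, limma called 9 genes for the first pair, against 24.8% of all transcript clusters. Of these, 7 were higher and 2 lower (background shares 13.9% and 10.8%). For the second pair it called 1 gene, Sar1a, which was higher, against 3.97% in all and 2.14% higher. The arrays of a pair are not independent, so these counts describe the pairs only.

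The authors' deposited table of the same comparison gives 2 group averages, a p-value and a false discovery rate (FDR), and its treated averages for these genes were mostly not those of the arrays. The treated average in the authors' deposited table was higher for 36 of the 40 genes, against 45.6% of all transcript clusters and 49.5% of those above background. The median difference in the authors' deposited table was 0.31 (log2), against -0.03 over all transcript clusters. An FDR under 0.05 was given to 3 genes in the authors' deposited table, all higher, against 1.56% of all transcript clusters, or 0.896% higher. At an unadjusted p under 0.05 the authors' deposited table held 20 genes, against 16.3%, of which 19 were higher, against 7.62%, and 1, Copg2, was lower, against 8.67%. The test behind these values is not named in the table, and both sources use the same controls.

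The 4 treated arrays did not give the treated average found in the authors' deposited table. A Tukey biweight mean, which gives outlying values less weight, was taken over the 4 arrays of each group. Its control value matched the control average in the authors' deposited table to within 0.01 for all 40 genes and, rounded, for 100% of all transcript clusters. Its treated value did so for 1 of the 40 genes in the authors' deposited table, and for 2.4% of all transcript clusters. For 18 genes the treated average in the authors' deposited table was above all 4 treated arrays, against 18.3% of all transcript clusters, and for 6 it was below all of them, against 23.8%. The values of both sources are therefore given side by side, and why they differ was not tested.

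**Figure D3:**
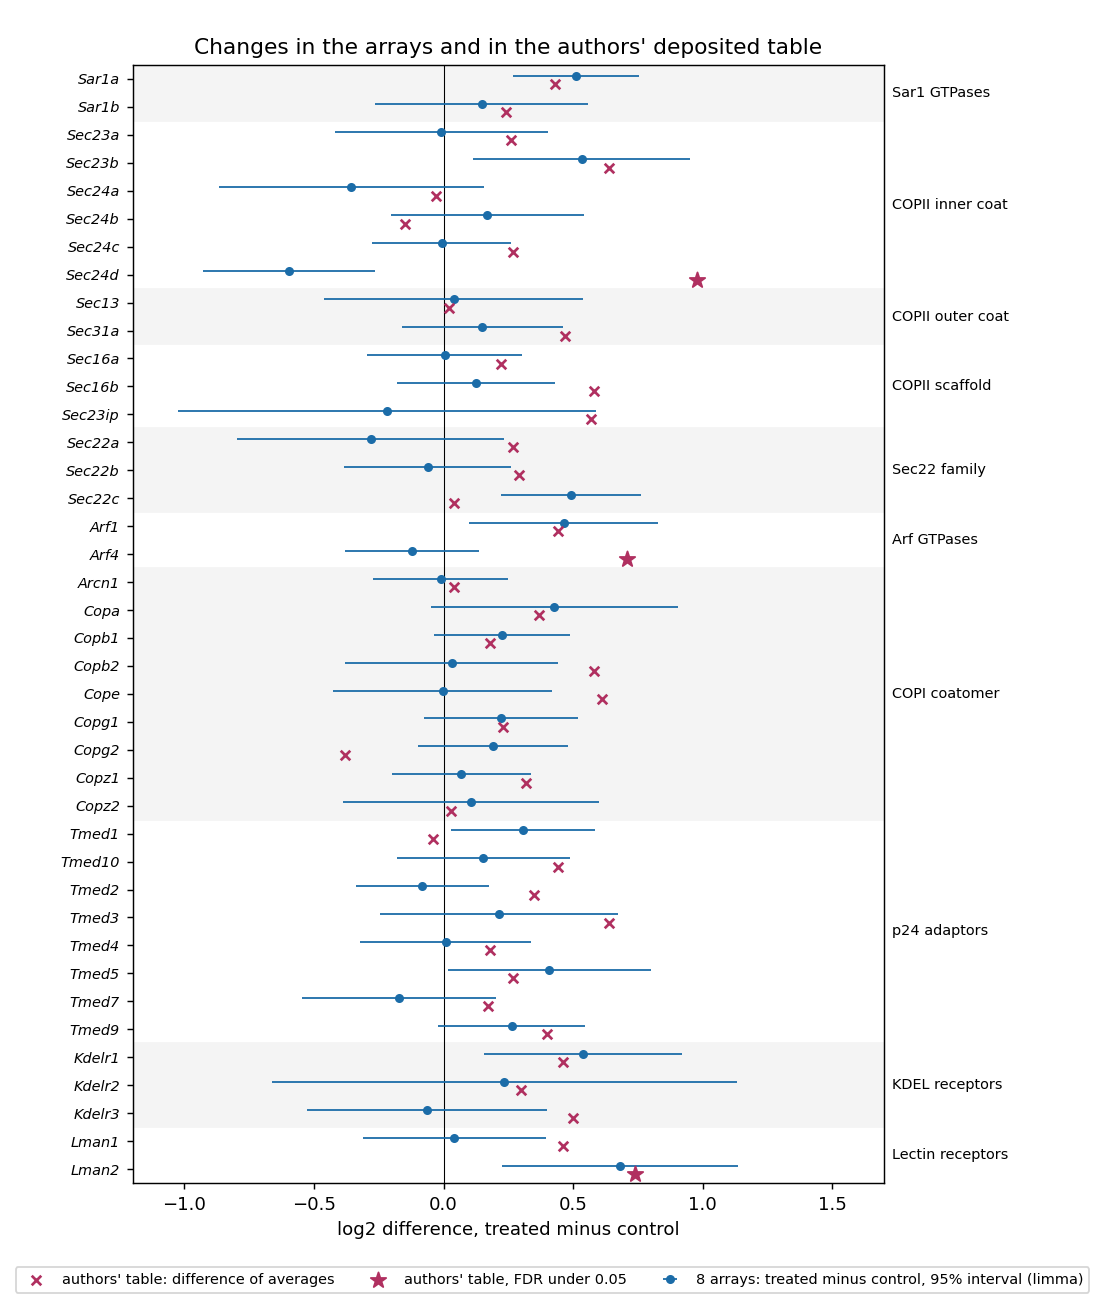
Log2 difference, treated minus control, of each gene in the 8 arrays (circle, with the 95% interval from limma) and in the authors' deposited table (cross, or star where its FDR was under 0.05). The stars of Sec24d and Arf4 lie to the right of 0 with their circles to the left of it, and those of Lman2 lie together.

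The 3 genes past the FDR threshold were Arf4, Sec24d and Lman2. Arf4 went from 12.59 to 13.30 in the authors' deposited table, a 1.63-fold rise with an FDR of 0.0174, while no treated array read above 12.61. Sec24d went from 6.53 to 7.51 in the authors' deposited table, 1.98-fold with an FDR of 0.0266, while no treated array read above 6.20 and the arrays differed in the other direction. Lman2 went from 8.79 to 9.53 in the authors' deposited table, 1.67-fold with an FDR of 0.0409, and this average lay within the range of the treated arrays. Of these 3 genes, then, 1 had array values on the same side as its average, and it was not past the threshold in the arrays.

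**Figure D4:**
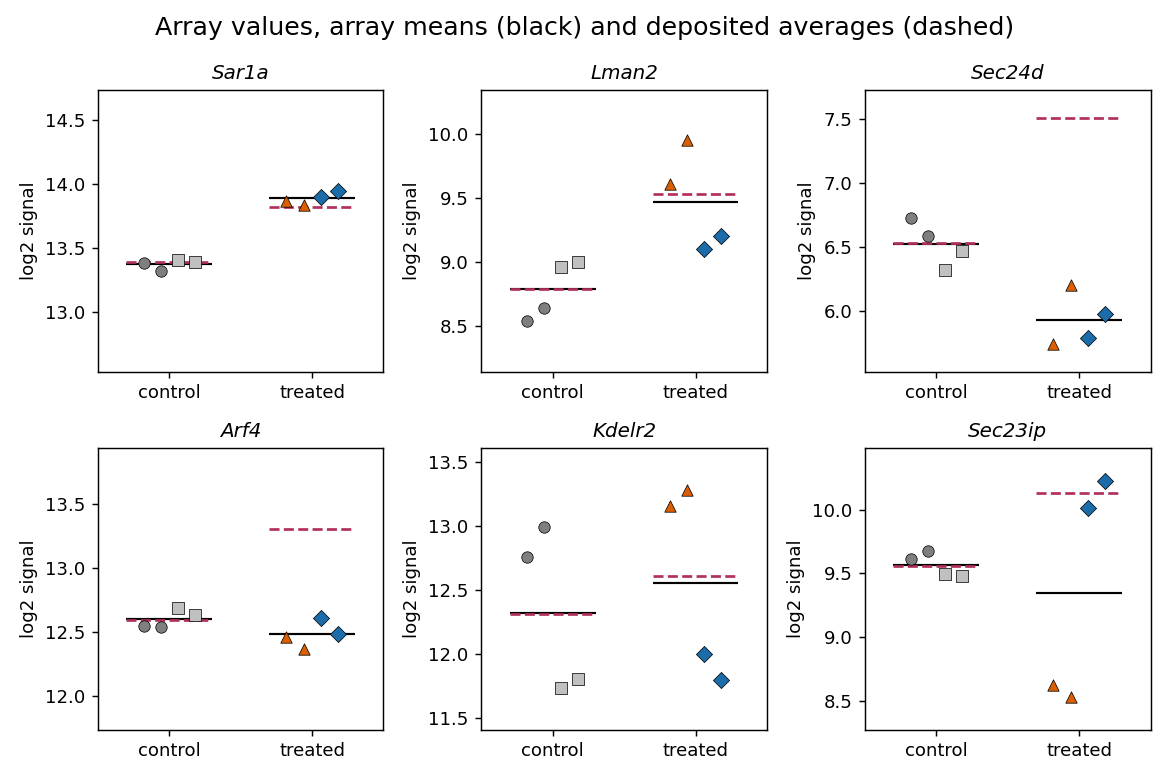
Log2 signal of 6 genes in the 4 control arrays (circles and squares for the pairs) and the 4 treated arrays (triangles and diamonds for the pairs), with the array mean as a black line and the average of the authors' deposited table as a dashed line. For Sec24d and Arf4 the dashed treated line lies above every treated point, and for Kdelr2 and Sec23ip the points of the pairs lie apart.

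Leaving out Sec16b, which was below background there too, the next largest differences in the authors' deposited table were 0.64 for Sec23b and Tmed3, 0.61 for Cope, 0.58 for Copb2 and 0.57 for Sec23ip (log2). Their FDR in the authors' deposited table lay between 0.0970 and 0.377. Kdelr3 at 0.50 and Sec31a at 0.47 followed in the authors' deposited table. The coatomer genes were positive in 8 of 9 cases in the authors' deposited table with a median of 0.23, the p24 family in 7 of 8 with 0.31, and all 3 KDEL receptors and both lectins were positive. Sar1a, which had the smallest p in the arrays, was at 0.43 in the authors' deposited table with an FDR of 0.123. Sec22c and Tmed1, both higher in every treated array, were at 0.04 and -0.04 in the authors' deposited table.

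Related genes were also set against each other within arrays, as the log2 ratio of 2 genes. A shift of equal log2 size for all genes of an array cancels in such a ratio. A shift that depends on the signal level need not cancel, and this was not tested. There were 18 such gene pairs from 9 families, and in 5 the ratios of the groups did not overlap. The share among ratios of other genes was not taken, and for single transcript clusters it was 12.9%. Each of the 5 pairs holds a gene whose own groups did not overlap, namely Arf1, Sec24d, Sec22c or Lman2. The 5 ratios are therefore not results separate from those of these genes. The log2 ratio of Arf1 to Arf4 went from 2.11 ± 0.25 to 2.69 ± 0.05 (SD, n = 4 each) from control to treated, with a like shift in both treated pairs, 0.58 and 0.59. The ratio of Sec24c to Sec24d went from 4.43 ± 0.16 to 5.02 ± 0.25, also by 0.59 in each treated pair. The other 3 were Sec24b to Sec24d, with a shift of 0.77, Sec22b to Sec22c, with -0.55, and Lman1 to Lman2, with -0.64. For each of these 5 the exact permutation p was 0.0286 (two-sided), the smallest that 4 against 4 arrays can give, and 0.103 after Benjamini-Hochberg adjustment over the 18 pairs. Between the averages of the authors' deposited table, 4 of these 5 ratios differed in the other direction: Arf1 to Arf4 by -0.27, Sec24c to Sec24d by -0.71, Sec24b to Sec24d by -1.13 and Sec22b to Sec22c by 0.25. Lman1 to Lman2 was at -0.28 in the authors' deposited table. None passed the threshold in the arrays, and arrays in close pairs are not freely exchangeable. A ratio within an array shows unequal change, not which of the genes differed.

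Other genes of the same route were read from a list of 57, of which 56 had a transcript cluster of their own. It held regulators of the GTPases, cargo helpers at the exit sites, tethers and SNAREs. None passed the test in the arrays, while 12 had an unadjusted p under 0.05, 10 of them higher, against 17.9% and 9.84% of all transcript clusters. The difference was positive for 37 of the 56, against 51.5% of all transcript clusters, with a median of 0.15. Yif1a, a Golgi membrane protein, came nearest, at 4.40 to 4.63 in controls and 5.20 to 5.39 in treated arrays, with a difference of 0.78 ± 0.12 (log2 ± SE, adjusted p = 0.0558, limma). Its control signal was below background, so the size is uncertain. Gorasp1, which stacks Golgi membranes, and Ergic3, a cargo helper, were higher in every treated array, by 0.66 ± 0.14 and 0.60 ± 0.16, with adjusted p of 0.0778 and 0.113 (limma). Of the 56 genes, 7 were higher and 1 was lower in every treated array, against 6.98% and 5.93% of all transcript clusters. Trappc1 of the TRAPP tether was at 0.48 ± 0.15, and the SNARE gene Bet1l was below background in both groups.

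Of these 56 genes, 3 had an FDR under 0.05 in the authors' deposited table, all higher, against 1.56% of all transcript clusters, or 0.896% higher. They were the SNARE gene Use1 at 0.89 (FDR 0.0309), the tether gene Uso1 at 0.76 (FDR 0.0333) and Yif1a at 0.56 (FDR 0.0490) in the authors' deposited table. On the array values Use1 differed by 0.28 ± 0.14 and Uso1 by -0.17 ± 0.17 (log2 ± SE). Trappc6b was at 0.74 in the authors' deposited table, while its array difference was -0.34 ± 0.33. Its first treated pair was below all controls, at 10.88 and 10.81. The second treated pair, at 12.14 and 12.20, was slightly above the highest control, 12.10.

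Chaperones, which fold new proteins in the endoplasmic reticulum, and factors of its stress response were read beside the coat genes. The chaperone list of 17 genes also holds Sel1l, Edem1, Herpud1 and Selk, which belong to the degradation machinery. These were at 0.09, 0.36, 0.36 and 0.39 in the authors' deposited table, the lowest of the list. None of 28 transcript clusters passed in the arrays, and 3 had an unadjusted p under 0.05, against 17.9% of all transcript clusters. The 17 genes of the chaperone list had a median of 0.17, with 14 positive. The 11 transcript clusters of stress factors had a median of 0.00, with 6 positive. Over all transcript clusters 51.5% were positive. Creb3l2, a membrane-bound transcription factor that is known in mouse cartilage to drive Sec23a, was at 13.05 to 13.14 in controls and 12.81 to 12.82 in treated arrays, a difference of -0.27 ± 0.11 (log2 ± SE, adjusted p = 0.231, limma). Its relative Creb3 was also lower in every treated array (-0.30) and Atf4 was higher in every one (0.25). Of the 28 transcript clusters, 1 was higher and 2 were lower in every treated array, against 6.98% and 5.93% of all transcript clusters. Sel1l, of the degradation machinery, differed by 0.60 ± 0.27. The groups of Sel1l overlapped, with the first treated pair at 1.06 and the second at 0.15 above the control mean, and its difference in the authors' deposited table was 0.09. All 17 genes of the chaperone list were positive in the authors' deposited table, with a median of 1.05, against 45.6% of all transcript clusters. Of the 17, 5 had an FDR under 0.05 there, against 1.56% of all transcript clusters. These 5 were Creld2 (1.42), P4hb (1.32), Calr (1.25), Dnajb9 (1.19) and Pdia3 (1.05) in the authors' deposited table, and Dnajb9 had the smallest FDR of them, 0.0009. Sdf2l1 was at 1.26 in the authors' deposited table with an FDR of 0.224. In the arrays Creld2, P4hb, Calr, Dnajb9, Pdia3 and Sdf2l1 differed by 0.25, 0.50, 0.45, 0.17, 0.33 and 0.16, none past the threshold. Against the control mean, P4hb was at -0.02 in the first and 1.02 in the second treated pair. Calr was at 0.98 and -0.08 and Sdf2l1 at 0.43 and -0.12, in the same order. Creld2, Dnajb9 and Pdia3 were above the control mean in both treated pairs.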

How the data were processed

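The 8 arrays, 4 per group, were grouped by their titles. The tools named, without versions or order, are RMA, Affymetrix Expression Console and Transcriptome Analysis Console, per the submitters' processing notes. The genome build is not given in the sources used here. Array values were used as deposited, as log2 signals. The authors' deposited table holds log2 averages per group, a signed fold change (a score in which values below 1 are negative inverses), a p-value and an FDR-adjusted p-value, per the file headers. Of 28846 features 6640 control features were left out.

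Treated minus control was fitted with limma 3.58.1 in R 4.3.3 (6 residual degrees of freedom, no block). A transcript cluster with several symbols was named for none of them. All 40 symbols match RefSeq's mouse table (GRCm38.p6). No label links a replicate number to a culture or day, and deviations of same-numbered arrays correlated at 0.07 to 0.08, so the numbers were not taken as pairs. The close pairs of arrays were used as a random block (correlation 0.808), by correlation with the nearest array of the group.

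In simulated data of the same size (200 of 22206 transcript clusters changed), the fit without a block called 171 for independent arrays, 9.6 falsely, and 1367 for arrays in close pairs, 1190 falsely. With the random block it called 143 for arrays in close pairs, 16.0 falsely. On the measured arrays, which also came in close pairs, the fit without a block called 26 transcript clusters. The fit with the random block called 0 there. The simulated counts therefore do not give the number of false calls in the measured arrays. Values in each array are given for the 12 genes with the smallest p, the 12 with the largest difference in the authors' deposited table and the lowest and highest signal (21 genes). The genes, lists and tests were chosen with earlier results of these data known. The number of arrays limits the precision.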

Additional observations from a re-analysis of the deposited data

Results flagged for a closer look

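Among 74 groups of 4 arrays, taken over the 21 vesicle coat genes with a value per array and the route and stress genes named by the same rule, 1 held an array set apart under Dixon's gap test (critical value 0.829). It was treated array 2 for Creb3l2. The gap there was 0.966 of the group's range, a range that spanned only 0.01 on the log2 scale. About 5% of groups would be so marked by chance if arrays were independent. No such array was found for the 21 vesicle coat genes.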

How the results depend on the processing

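No vesicle coat gene passed the threshold in any fit that used arrays of both treated pairs: with the replicate number as a block (smallest adjusted p = 0.127 by limma), with the close pair as a random block, on means of pairs, with each array centred or quantile-normalized, with dim transcript clusters left out, with array weights, with a trend, with 1 control pair alone (an alternative chosen after seeing the data), and without any 1 array (smallest adjusted p 0.115 to 0.190). The first treated pair alone gave 9 genes and the second treated pair alone gave 1, against 24.8% and 3.97% of all transcript clusters. The count over all transcript clusters was 26, and became 48 after centring, 61 without dim transcript clusters and 0 to 5 without 1 array. The authors' deposited table held 3 genes past its FDR threshold, and 20 at an unadjusted p under 0.05. Of the other route genes, 1 (Yif1a) passed after centring and 1 (again Yif1a) without dim transcript clusters, a filter that it passed only through its treated arrays. Of the 56 route genes, 27 passed with the first treated pair alone and 4 with the second alone, against the same 24.8% and 3.97%. The arrays of a pair are not independent, so these counts describe the pairs only.

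The median difference of the 40 genes, 0.12 as reported, was 0.059 after quantile normalization, 0.15 with the second treated pair alone, 0.31 in the authors' deposited table and 0.081 to 0.132 without any 1 array. The genes with a positive difference numbered 23 after quantile normalization, 31 after centring and 23 to 29 without any 1 array. Among genes named with values per array, these changed sign. In the authors' deposited table Arf4 was at 0.71, Cope at 0.61, Copg2 at -0.38, Kdelr3 at 0.50, Sec23ip at 0.57, Sec24d at 0.98 and Tmed1 at -0.04. With the second treated pair alone Cope was at 0.27, Kdelr3 at 0.049 and Sec23ip at 0.55, and with the first alone Copb2 was at -0.19. Against the second control pair alone Copb2 was at -0.21, Cope at 0.22, Kdelr3 at 0.31 and Sec31a at -0.029, and against the first alone Tmed3 was at -0.11. Quantile normalization put Copb2 at -0.021, centring put Cope at 0.023 and array weights put it at 0.061. Leaving out any 1 array moved Copb2 between -0.068 and 0.12, Cope between -0.10 and 0.087, Kdelr3 between -0.22 and 0.068, and Sec23ip between -0.51 and 0.053. The causes were not tested. Signals below background limit what can be said of Sec16b, and the close pairs limit the error estimates of every gene.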
